A study of Mus musculus with 25 samples.

Results

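Transcripts of adult globins and of platelet chemokines were measured in CD11b+ cells that had been sorted from mouse kidneys by their Ly6C level. The 4 genes described are Hbb-b2 and Hba-a2, which encode chains of adult hemoglobin, and Pf4 and Ppbp, which encode chemokines stored in platelets. They were taken by name from the 18194 genes that have a probe set of their own on the array with earlier results of these data in view, and for each gene the probe set was chosen by its log2 level, as the one with the highest mean over 21 arrays. Those means were 7.82 for Hbb-b2, 8.94 for Hba-a2, 9.12 for Pf4 and 5.40 for Ppbp. Hbb-b2 had 1 other probe set of its own, which averaged 2.53 and was called present (P) on 0 of 21 arrays, and the other 3 genes had none. All 4 genes were among the 8341 that passed the detection filter, which asks for P on 2 or more arrays of any 1 group.

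The animals were male C57BL/6 mice aged 8 to 10 weeks whose renal vessels were clamped on both sides for 28 min and then released, or that had sham surgery without clamping. All received saline and buprenorphine, including the sham animals. The Ly6C High gate held 3 arrays at 4 h and 2 sham arrays. The Ly6C Intermediate gate held 2 sham arrays and 3 arrays each at 4 h, 24 h and 9 days. The Ly6C Low gate held 3 arrays at 9 days and 2 sham arrays. These 21 arrays came from 11 animals, and several animals gave arrays in more than 1 gate. Another 3 arrays share the single label sham 58 High and 1 holds reference RNA, and these 4 stayed outside the groups. For 1 array of the 4 h High group, replicate 30, part of the description names 9 days, and it was kept where its source name puts it. The labels call all cells macrophages. Of 15 measured tissue macrophage markers, 12 to 13 were P on the 9 day Low arrays and 0 to 8 on the sham High arrays. Of 14 neutrophil markers, 11 were P on each 24 h and each sham Intermediate array, 10 to 13 on the 4 h Intermediate arrays and 11 to 14 on the sham Low arrays. All 12 kidney tubule markers were P on both sham Intermediate arrays, and 11 to 12 on the sham Low arrays.

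The share of probe sets called P differed widely between arrays. It ran from 14.4% to 19.0% at 4 h and from 1.99% to 12.9% in sham animals in the High gate. In the Intermediate gate it ran from 15.9% to 22.2% in sham animals, 11.9% to 17.7% at 4 h, 10.1% to 19.2% at 24 h and 3.29% to 25.5% at 9 days. In the Low gate it ran from 25.3% to 37.3% at 9 days and from 27.4% to 40.0% in sham animals. The 3 arrays below 5% were 9 day Intermediate replicates 8 and 13 and sham High replicate 1. In sorted bulk samples, fewer cells carrying a transcript and less transcript per cell cannot be told apart.

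Hemoglobin is a tetramer of alpha and beta globin chains and is made in erythroid precursors. Circulating mammalian red cells have lost their nucleus, yet immature ones still carry globin mRNA. Platelets, which are fragments of megakaryocytes, store Pf4 (Cxcl4) and the product of Ppbp (Cxcl7) in their alpha granules and release both on activation. Pf4 binds heparin-like chains on endothelium, and the processed product of Ppbp draws neutrophils through the receptor Cxcr2. In mice, Pf4 is also transcribed in some macrophages. Ischemia and reperfusion of the kidney bring red cells and platelets into congested medullary vessels.

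Pf4 and Ppbp are neighbors on mouse chromosome 5. In RefSeq's GRCm38.p6 annotation Ppbp spans chr5:90768518-90770063 and Pf4 spans chr5:90772435-90773383, both on the plus strand, with 2371 bases between them. The adult alpha globin genes lie on chromosome 11, Hba-a1 at chr11:32283672-32284486 and Hba-a2 at chr11:32296492-32297310, and the beta globin genes Hbb-bs and Hbb-bt on chromosome 7. Of the 4 members, Hba-a2, Pf4 and Ppbp matched an entry of the promoter table, and Hbb-b2 did not. Hbb-b2 is the name that the platform annotation gives its probe set. Which adult beta globin gene that probe set reads in these mice was not tested. Hbb-bs stands for a beta globin promoter because a shared probe set used below covers it. The 250 bases before each start are shown from RefSeq, 5′ to 3′ along the gene, since erythroid and megakaryocyte genes are known to share GATA1 as an activator. Capitals mark GATA words, that is GATA with A or T before it and A or G after it, and the word CCACCC, bound by factors of the Klf1 family, on either strand.
Hbb-bs, chr7:103827929-103828178, minus strand: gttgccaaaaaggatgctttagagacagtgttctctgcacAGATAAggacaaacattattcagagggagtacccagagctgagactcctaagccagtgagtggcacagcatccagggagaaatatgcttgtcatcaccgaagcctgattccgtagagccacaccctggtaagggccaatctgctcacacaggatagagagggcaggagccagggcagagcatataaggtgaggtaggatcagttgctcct
Hba-a2, chr11:32296242-32296491, plus strand: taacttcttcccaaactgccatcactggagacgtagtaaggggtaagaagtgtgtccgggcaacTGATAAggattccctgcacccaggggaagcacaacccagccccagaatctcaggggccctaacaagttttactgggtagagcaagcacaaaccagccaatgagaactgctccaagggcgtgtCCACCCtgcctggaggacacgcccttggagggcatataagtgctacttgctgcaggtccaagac
Pf4, chr5:90772185-90772434, plus strand: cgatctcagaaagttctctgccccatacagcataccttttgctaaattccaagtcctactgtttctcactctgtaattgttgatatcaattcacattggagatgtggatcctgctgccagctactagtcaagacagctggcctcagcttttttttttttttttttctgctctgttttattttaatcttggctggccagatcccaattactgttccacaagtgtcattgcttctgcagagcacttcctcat
Ppbp, chr5:90768268-90768517, plus strand: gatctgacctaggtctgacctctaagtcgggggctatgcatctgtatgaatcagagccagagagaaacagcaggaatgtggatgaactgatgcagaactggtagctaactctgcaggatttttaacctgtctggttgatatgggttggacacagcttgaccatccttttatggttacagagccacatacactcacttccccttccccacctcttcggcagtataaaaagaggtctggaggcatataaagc
Counting the base before the start as -1, Hba-a2 held TGATAA from position -186 and CCACCC from position -64. Hbb-bs held AGATAA from position -210. Only the exact words were searched, so variants such as ccacaccc, which the Hbb-bs window holds, were not counted. A missing word therefore does not show that no such factor binds. The window of Hbb-bt, which the same shared probe set covers and which is not shown, held CCACCC from position -141 and no GATA word. In windows extended to 50 bases after the start, Pf4 held AGATAA from base 37 after the start, and Ppbp held none of these words. At least 1 GATA word was present in 29.8% of 32851 mouse windows of the same length, and CCACCC in 31.5%. The windows of Hba-a1 and Hba-a2 were identical over 297 of 297 overlapping bases.

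Hbb-b2 was highest in the Ly6C Intermediate cells at 4 h and lowest in the Intermediate cells at 9 days. In the High gate its log2 values were 10.15, 9.76 and 10.29 at 4 h, all P, against 2.63 and 8.06 in sham animals, both called absent (A). In the Intermediate gate they were 10.27 and 8.09 in sham animals, 10.69, 10.29 and 11.78 at 4 h, 8.13, 9.74 and 8.25 at 24 h, and 4.96, 1.98 and 5.72 at 9 days. All arrays at 4 h and 24 h were P, 1 of 2 sham arrays was P, and none of the 3 arrays at 9 days was. Thus every 9 day Intermediate value lay below every value of the other Intermediate groups. In the Low gate the values were 6.10, 7.95 and 4.19 at 9 days, the first pair P, against 7.70 and 7.44 in sham animals, both P, and the groups overlapped.

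Ordered by mean, Hbb-b2 stood at 10.92 in 4 h Intermediate, 10.07 in 4 h High, 9.18 in sham Intermediate, 8.71 in 24 h Intermediate, 7.57 in sham Low, 6.08 in 9 day Low, 5.34 in sham High and 4.22 in 9 day Intermediate cells. Of these neighbors, only 24 h Intermediate and sham Low had ranges that did not overlap. With so few arrays per group, separate ranges are descriptions throughout, and the share of all genes with such ranges is not given. The reference RNA gave 2.13, called A.

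**Figure D1:**
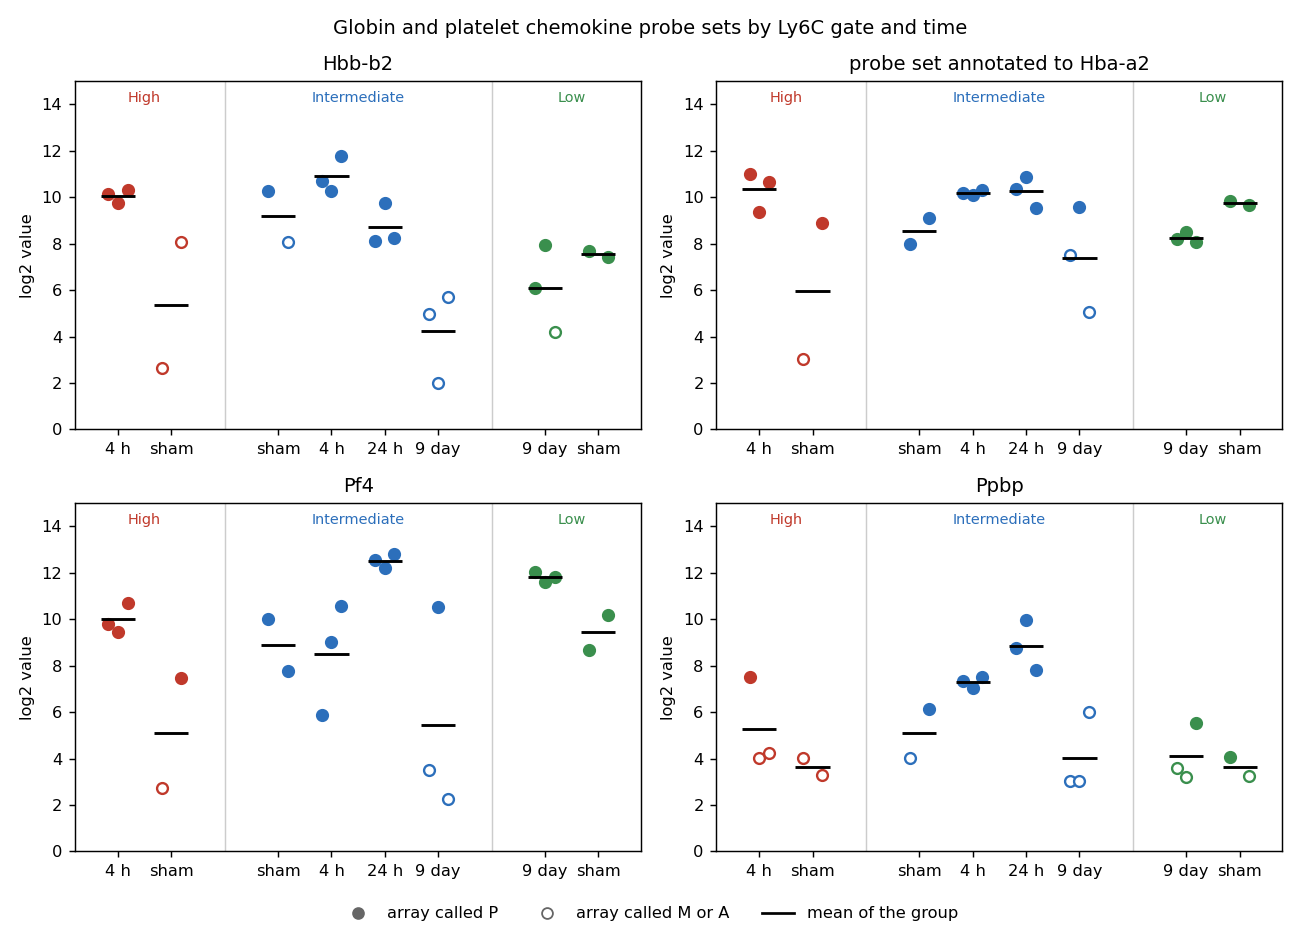
Log2 value of each member's probe set (y axis) by time after ischemia (x axis) and Ly6C gate (color), with 1 point per array, filled where the array was called P, and a line at the group mean. Hbb-b2 sits between 1.98 and 5.72 with no P call in 9 day Intermediate cells, Pf4 sits above 11.6 in 24 h Intermediate and 9 day Low cells, and Ppbp is P on all arrays of 4 h and 24 h Intermediate cells and of no other group.

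Across all genes, the group means were compared by limma with Benjamini-Hochberg adjustment over the 8341 genes tested, with a call at an adjusted p under 0.05. Because the members were named with results of these data in view, these values describe them and support nothing further. Of 52 combinations of member and comparison, 16 had an unadjusted p under 0.05. Among all 8341 genes, 500 to 1763 had such a p in a given comparison. After adjustment 1 of the 52 was called. This was the fall of Hbb-b2 in 9 day against 4 h Intermediate cells, by 6.70 on the log2 scale with an SE of 1.29 and an adjusted p of 0.0327 by limma. In that comparison 33 of 8341 genes were called, or 0.396%, so the 1 of 4 members stands beside that share. Since Hbb-b2 was P on no 9 day Intermediate array, its level there is only a bound. The 9 day mean of 4.22, in which no value was under the lowest value called P on its own array, lay 104-fold below the 4 h mean of 10.92. That ratio of measured means takes no account of the spread between arrays. The call was lost when any 1 of 8 arrays was left out, with adjusted p values of 0.0678 without 9 day Intermediate replicate 8, 0.0742 without 9 day Intermediate replicate 13, and 0.0899, 0.0727 and 0.1296 without 4 h Intermediate replicates 30, 32 and 33. It was 0.0513 without 4 h High replicate 32 and 0.0517 without sham Low replicate 1 or 2. Without the 3 arrays of low yield the fall was 8.94, with an adjusted p of 0.00853, and it then rests on 9 day Intermediate replicate 9 alone.

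Kidney tubule and neutrophil markers moved with Hbb-b2 in this comparison. Of the 12 tubule markers, 0 to 2 were P on the 9 day Intermediate arrays and 7 to 8 on the 4 h Intermediate arrays, and their summed linear level ranged from 290.4 to 3784 at 9 days, against 17968 to 28491 at 4 h. Kap, an androgen-regulated gene of the proximal tubule, Slc34a1, its phosphate transporter, and Umod, which encodes uromodulin, fell by 8.42, 6.77 and 9.04 on the log2 scale (limma adjusted p = 0.0495, 0.0327 and 0.0302). Slc34a1 and Umod were P on no 9 day Intermediate array, and their measured means lay 109-fold and 527-fold apart. Of 14 neutrophil markers, 6 to 10 were P on the 9 day Intermediate arrays and 10 to 13 on the 4 h arrays, with summed linear levels of 38774 to 55431 at 9 days, against 69206 to 88999 at 4 h. None of the 12 tested lay above 0, and Mmp8, a neutrophil collagenase, fell by 6.40 (limma adjusted p = 0.0348). Mgst1, a glutathione transferase on the list of classical monocyte markers, fell by 6.26 (limma adjusted p = 0.0327). In the fit that left out the low-yield arrays Mmp8 and Mgst1 differed by -5.18 and -3.55 and were not called (adjusted p = 0.223 and 0.0738). The part of any of these markers in the Hbb-b2 result was not tested. Over the 21 arrays the correlation with Hbb-b2 was above 0 for 12 of 12 tubule markers and their median r was 0.57. It was above 0 for 12 of 12 neutrophil markers too, with a median r of 0.45, while all genes tested had a median of 0.02. Spink1, a secreted trypsin inhibitor, followed Hbb-b2 closely, with r = 0.87. Such arrays share animals, gates and yield, so the correlations are descriptions.

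In the other comparisons with sham cells Hbb-b2 passed no test. In High cells at 4 h against sham, where 0.432% of genes were called, it had no P call in sham cells, and its measured means lay 26.4-fold apart. The difference was 4.72 ± 1.44 (SE, limma adjusted p = 0.154). Each sham High array moved that value: it was 2.01 (adjusted p = 0.764) without the 3 low-yield arrays, which leaves sham High replicate 2, and 7.44 (adjusted p = 0.00754) without replicate 2, which leaves the low-yield replicate 1. In 9 day against sham Intermediate cells, where 0.683% of genes were called, it differed by -4.96 ± 1.44 (SE, limma adjusted p = 0.133), and by -7.20 without the low-yield arrays (adjusted p = 0.0274). In 4 h against sham Intermediate cells, where 0.216% were called, it differed by 1.74 ± 1.44 (limma adjusted p = 0.962). The 4 h minus sham differences in High and in Intermediate cells differed by 2.99 ± 2.04 (SE, limma adjusted p = 0.623), where 0.012% of genes were called.

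Probe sets that match several globin genes gave a further view of the same transcripts, which the choice of members did not use. The probe set annotated to Hbb-bt, Hbb-bs, Hbb-b2 and Hbb-b1 gave 11.65, 11.35 and 11.82 in 4 h High cells, against 4.11 and 9.95 in sham High cells. In the Intermediate gate it gave 11.86 and 9.30 in sham animals, 12.36, 11.77 and 13.45 at 4 h, 10.13, 11.65 and 10.30 at 24 h, and 4.78, 4.43 and 7.61 at 9 days. It was P on every array of those groups except sham High replicate 1 and the 3 arrays at 9 days. In Low cells it gave 7.78, 8.89 and 3.46 at 9 days, the last called A, against 9.36 and 9.44 in sham animals. Its correlation with Hbb-b2 was r = 0.97 over the 21 arrays and 0.92 over deviations from group means.

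Of 3 probe sets annotated to Hba-a1 and Hba-a2 together, the brightest gave 11.26 and 8.90 in sham, 11.99, 11.20 and 13.49 at 4 h, 9.08, 8.34 and 6.50 at 24 h, and 8.16, 4.41 and 5.65 at 9 days in Intermediate cells. It was P on all sham and 4 h arrays, on 1 of 3 at 24 h and on 0 of 3 at 9 days. In High cells it averaged 10.91 at 4 h, all P, and 7.35 in sham animals, both A, and in Low cells 6.14 at 9 days and 8.76 in sham animals. Its correlation with Hbb-b2 was 0.74 over 21 arrays but 0.13 over deviations from group means, and those of the other alpha globin probe sets with Hbb-b2 were 0.64 and 0.46. Alpha globin thus had its highest mean in the same group as beta globin, 4 h Intermediate, while at 24 h its mean was 7.97, against 10.08 in sham Intermediate cells (limma adjusted p = 0.716).

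When these probe sets were added to the fit, 9 day against 4 h Intermediate cells differed by -6.92 for the shared beta globin probe set (limma adjusted p = 0.0444). The alpha globin probe sets differed by -6.16 for the brightest (limma adjusted p = 0.0311), -5.45 for the next (adjusted p = 0.0716) and -2.54 for the dimmest (adjusted p = 0.449). This alternative was chosen after seeing the data, and the arrays are those that gave the Hbb-b2 value.

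**Figure D2:**
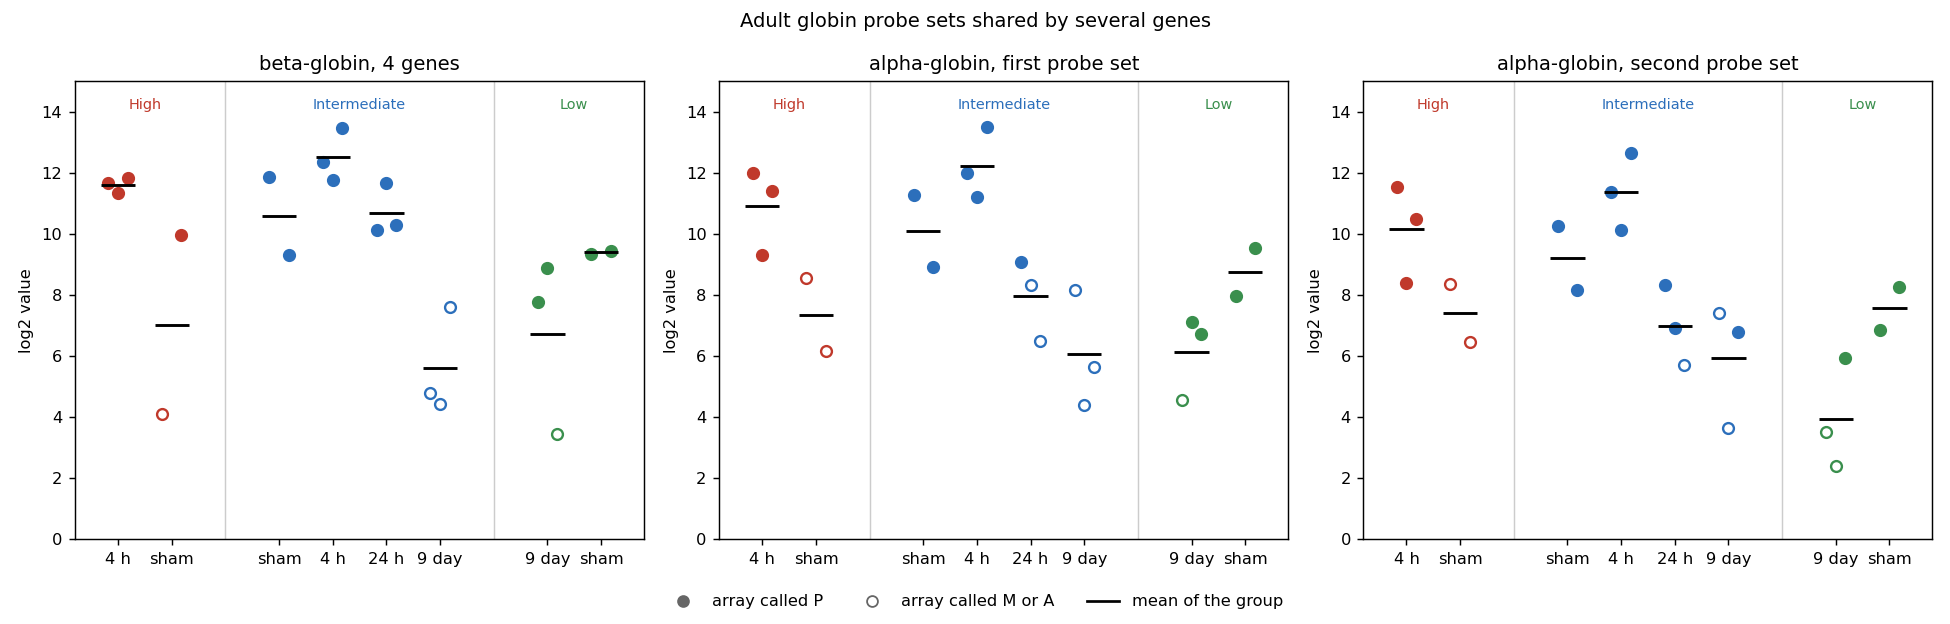
Log2 value (y axis) of 3 probe sets shared by several adult globin genes, by time after ischemia (x axis) and Ly6C gate (color), with 1 point per array, filled where called P, and a line at the group mean. All 3 have their highest mean in 4 h Intermediate cells, at 12.53 for beta globin and at 12.23 and 11.39 for alpha globin.

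The probe set chosen for Hba-a2 did not follow the alpha globin probe sets. The annotation table assigns it to Hba-a2, but the description inside the deposited table names H3f3a, which encodes a replication-independent form of histone H3. Over 21 arrays its correlation with 3 shared alpha globin probe sets was 0.39, 0.26 and 0.04. With a probe set that the deposited table also names H3f3a, and that the annotation gives to H3f3a, H3f3b and further H3f3-like genes, it was r = 0.93, or 0.96 over deviations from group means. Without the low-yield arrays that value was 0.91, against 0.52 to 0.56 with the alpha globin probe sets. The other 6 probe sets of H3f3 genes correlated with it between -0.50 and 0.84. It is therefore given below as the probe set annotated to Hba-a2, and its values are not read as alpha globin.

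**Figure D3:**
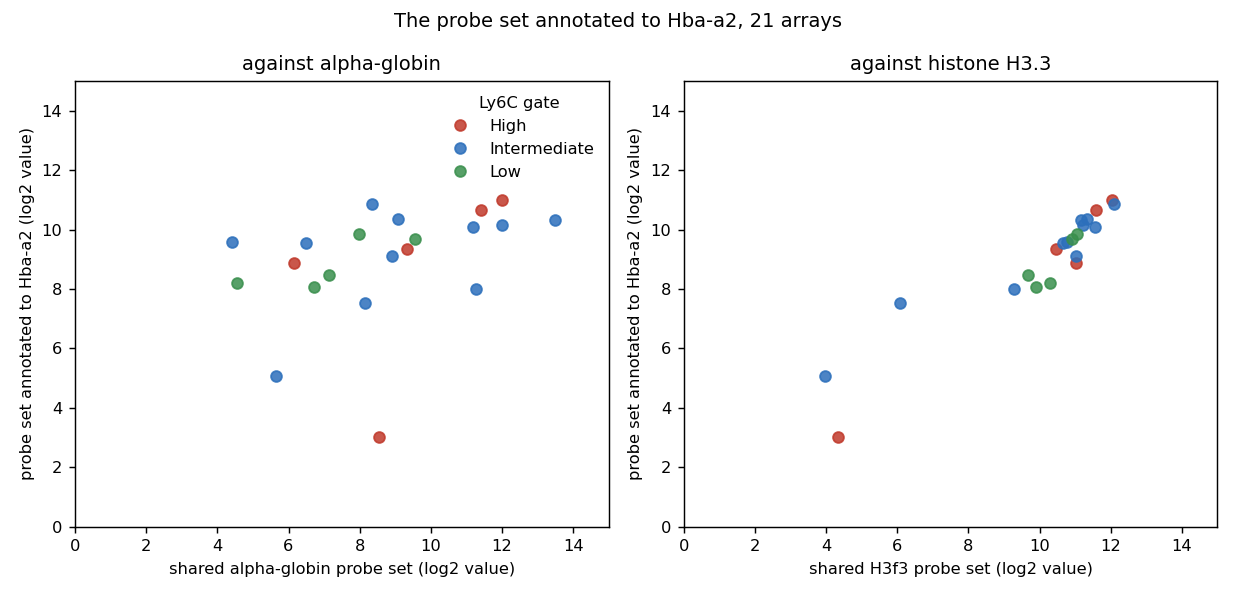
Log2 value of the probe set annotated to Hba-a2 (y axis) against the brightest shared alpha globin probe set (left, x axis) and an H3f3 probe set (right, x axis), with 1 point per array of 21, colored by Ly6C gate. The points scatter on the left, with r = 0.39, and lie near a line on the right, with r = 0.93.

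In High cells the probe set annotated to Hba-a2 gave 10.99, 9.34 and 10.67 at 4 h, against 3.02 and 8.87 in sham cells. In Intermediate cells it gave 8.01 and 9.12 in sham animals, 10.17, 10.09 and 10.33 at 4 h, 10.37, 10.85 and 9.54 at 24 h, and 7.52, 9.58 and 5.06 at 9 days. In Low cells it gave 8.19, 8.49 and 8.06 at 9 days, against 9.85 and 9.67 in sham cells. It was P on 18 of 21 arrays, and the 3 that were A were those of low yield. Its means ran from 10.33 in 4 h High to 5.95 in sham High cells, and among neighbors in that order only 4 h Intermediate and sham Low, and sham Low and sham Intermediate, did not overlap. It passed no test. Its difference in High cells at 4 h against sham was 4.39 ± 1.36 (SE, limma adjusted p = 0.163), and it was 1.46 (adjusted p = 0.699) without the low-yield arrays and 7.32 (adjusted p = 0.00288) without sham High replicate 2. The reference RNA gave 7.01, called P.

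Pf4 was highest in Intermediate cells at 24 h and in Low cells at 9 days. In the Intermediate gate its log2 values were 10.01 and 7.76 in sham animals, 5.88, 9.03 and 10.58 at 4 h, 12.53, 12.20 and 12.81 at 24 h, and 3.52, 10.51 and 2.25 at 9 days. All were P except those at 9 days of 3.52 and 2.25, which came from the low-yield replicates 8 and 13. The 24 h values lay above all other values of the gate, and the spread at 9 days covered nearly the whole range. In the Low gate the values were 12.02, 11.61 and 11.81 at 9 days, against 8.67 and 10.18 in sham animals, all P and without overlap. In the High gate they were 9.81, 9.45 and 10.71 at 4 h, all P, against 2.74, called A on the low-yield array, and 7.47, called P, in sham animals.

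Ordered by mean, Pf4 stood at 12.51 in 24 h Intermediate, 11.81 in 9 day Low, 9.99 in 4 h High, 9.43 in sham Low, 8.88 in sham Intermediate, 8.50 in 4 h Intermediate, 5.42 in 9 day Intermediate and 5.11 in sham High cells. The 24 h Intermediate and 9 day Low groups did not overlap with each other, and 9 day Low did not overlap with 4 h High. All later neighbors overlapped. The reference RNA gave 9.53, called P.

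None of the Pf4 differences passed limma's test at an adjusted p under 0.05, and 4 of 13 had an unadjusted p under 0.05. In those 4 comparisons 603 to 1699 of all 8341 genes had such a p. The largest Pf4 difference was 9 day against 24 h Intermediate cells, at -7.09 ± 1.71 (SE, adjusted p = 0.074 by limma), where 0.384% of genes were called. Without the low-yield arrays, that is with replicate 9 as the only array at 9 days, it was -2.01 (adjusted p = 0.661). Without 9 day Intermediate replicate 9 it was -9.63 (adjusted p = 0.000574), which leaves only the 2 low-yield arrays at 9 days, and without sham High replicate 1 or 2 the adjusted p was 0.0424. In the cells of the same animals at 9 days, Intermediate minus Low was -8.50, -1.10 and -9.56 in replicates 8, 9 and 13, and the limma difference was -6.39 ± 1.71 (adjusted p = 0.0794), where 0.623% of genes were called. This too was called only without replicate 9 of the Intermediate gate, at -8.93 with an adjusted p of 0.00143, and was -1.31 (adjusted p = 0.953) without the low-yield arrays. The replicate with an ordinary yield thus had the smallest gap, and the low Pf4 levels at 9 days in Intermediate cells were those of the low-yield arrays.

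For Pf4 in 24 h against sham Intermediate cells the difference was 3.63 ± 1.91 (SE, limma adjusted p = 0.605), where 0.456% of genes were called. In 24 h against 4 h Intermediate cells it was 4.02 ± 1.71 (limma adjusted p = 0.59), where 0.12% were called. In 4 h against sham High cells it was 4.88 ± 1.91 (limma adjusted p = 0.252), and 2.52 without the low-yield arrays. In 9 day against sham Low cells it was 2.38 ± 1.91 (limma adjusted p = 0.832), where 0.995% were called. The separate ranges of these few arrays add nothing to that test. Of 13 tissue macrophage markers tested, 13 correlated with Pf4 above 0 over the arrays, at a median r of 0.36, while all genes had 0.23. Over the 18 arrays of ordinary yield it was 11 of 13, at a median of 0.16, and all genes had 0.04. Their summed level was 44277 to 61536 in 9 day Low cells, against 19316 to 27225 in sham Low cells, but 7352 to 14244 at 24 h and 12212 to 18392 in sham Intermediate cells. Their part in the Pf4 levels was not tested.

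Ppbp was highest in Intermediate cells at 24 h and was P on 10 of 21 arrays. In the Intermediate gate its log2 values were 4.04 and 6.15 in sham animals, 7.35, 7.02 and 7.51 at 4 h, 8.77, 9.94 and 7.79 at 24 h, and 3.04, 3.05 and 6.01 at 9 days. All arrays at 4 h and 24 h were P, as was 1 of 2 sham arrays, and none at 9 days was. The 24 h values lay above those at 4 h, which lay above all sham and 9 day values. In the High gate the values were 7.51, called P, 4.01 and 4.24 at 4 h, against 4.03 and 3.28 in sham animals. In the Low gate they were 3.60, 3.19 and 5.54 at 9 days, against 4.06 and 3.23 in sham animals, with 1 P call in each group.

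Ppbp means ran in the order 8.83 in 24 h Intermediate, 7.29 in 4 h Intermediate, 5.25 in 4 h High, 5.10 in sham Intermediate, 4.11 in 9 day Low, 4.03 in 9 day Intermediate, 3.66 in sham High and 3.64 in sham Low cells. Only the first pair of neighbors did not overlap. In 9 day against 24 h Intermediate cells the difference was -4.80 ± 1.07 (SE, limma adjusted p = 0.0588), and the measured 9 day mean, with no array P, was 27.9-fold below the 24 h mean. It was -5.79 without the low-yield arrays (adjusted p = 0.0847). It was called when 1 array was left out, namely 9 day Intermediate replicate 9 (adjusted p = 0.0385), 4 h High replicate 30 (0.0474) or sham High replicate 1 or 2 (0.0413). In 24 h against sham Intermediate cells it was 3.74 ± 1.20 (SE, limma adjusted p = 0.221), and in 4 h against sham Intermediate cells 2.20 ± 1.20 (limma adjusted p = 0.803). Of 12 neutrophil markers tested, 11 correlated with Ppbp above 0 over the arrays, at a median r of 0.48, or 0.46 without the low-yield arrays, while all genes had -0.06. In 4 h against sham Intermediate cells, however, only 4 of the 12 lay above 0, at a median of -0.11. In sham Low cells, where the Ppbp mean was lowest, 11 to 14 of 14 neutrophil markers were P. Their summed linear level in Intermediate cells was 76118 to 83686 in sham animals, 69206 to 88999 at 4 h, 83785 to 101596 at 24 h and 38774 to 55431 at 9 days. Their part in the Ppbp levels was not tested. The reference RNA gave 2.37, called P, a lower value than many that were called A on other arrays.

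**Figure D4:**
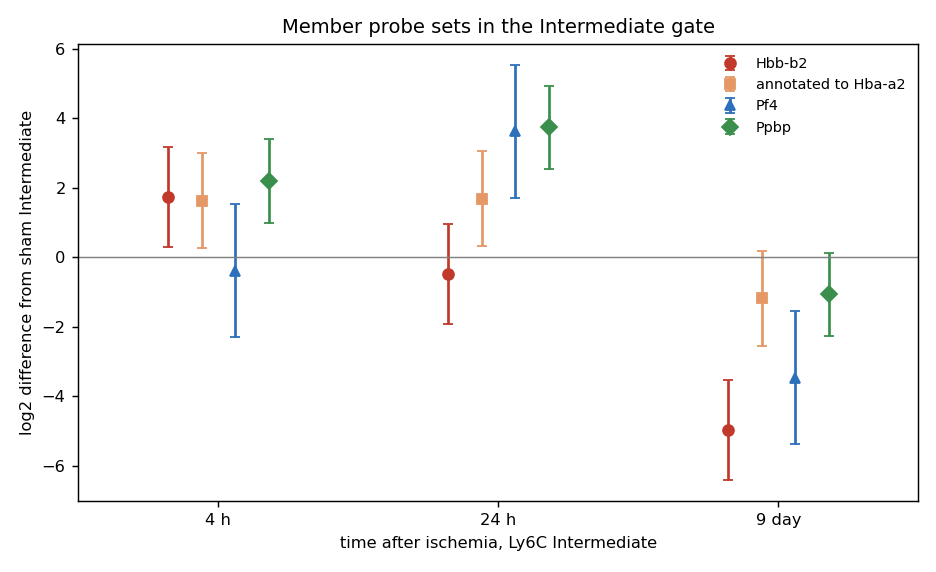
Difference in log2 value from the sham Intermediate mean (y axis) for the 4 member probe sets at 4 h, 24 h and 9 days (x axis), with limma standard errors as bars. Hbb-b2 has its highest point at 4 h (1.74), Pf4 and Ppbp have theirs at 24 h (3.63 and 3.74), and all 4 lie below 0 at 9 days, with none past the adjusted threshold.

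The chemokines therefore had their highest means 1 sampling time later than Hbb-b2 in the Intermediate gate, though no difference between 24 h and 4 h passed the test for any of the 3. Between 24 h and 4 h Intermediate cells Hbb-b2 differed by -2.21 ± 1.29 (SE, limma adjusted p = 0.828) and Ppbp by 1.54 ± 1.07 (adjusted p = 0.913). In the Low gate Pf4 was P on 5 of 5 arrays and Ppbp on 2 of 5. In High cells at 4 h Pf4 was P on 3 of 3 arrays, against 1 of 3 for Ppbp. In sham High cells it was 1 of 2 against 0 of 2. In the Intermediate gate both were P on all arrays at 4 h and 24 h, and Pf4 on more in the other groups. Over the 21 arrays the correlations of member pairs ran from 0.25 for Pf4 and Ppbp to 0.67 for Pf4 and the probe set annotated to Hba-a2. Without the low-yield arrays that highest value was -0.065. Hbb-b2 correlated with Pf4 at 0.31 and with Ppbp at 0.47, over deviations from group means at -0.02 and -0.067, and without the low-yield arrays at -0.27 and 0.44. Pf4 and Ppbp correlated at -0.39 over deviations from group means and at 0.18 without the low-yield arrays.

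In the comparisons of gates no member passed limma's test. High against Intermediate cells at 4 h, where 0% of 8341 genes were called and 500 had an unadjusted p under 0.05, differed by -0.85 for Hbb-b2, 1.49 for Pf4 and -2.04 for Ppbp. Within the 3 animals Hbb-b2 was lower in High cells in each, by 0.54, 0.53 and 1.48. In sham animals the High minus Intermediate difference of Hbb-b2 was -3.84 ± 1.58 (SE, limma adjusted p = 0.353), where 0.336% of genes were called, with -1.12 (adjusted p = 0.962) without the low-yield arrays and -6.55 (adjusted p = 0.0285) without sham High replicate 2. High minus Low in sham animals, where 0.0839% were called, gave -2.23 for Hbb-b2 and -4.32 for Pf4, and the probe set annotated to Hba-a2 was called there without sham High replicate 2 (adjusted p = 0.0101), while it differed by -0.89 (adjusted p = 0.709) without the low-yield arrays. Intermediate minus Low, where 0.0719% were called, gave 1.61 for Hbb-b2 and 1.45 for Ppbp. The change at 9 days from sham in Intermediate and in Low cells differed by -5.84 ± 2.70 for Pf4 (SE, limma adjusted p = 0.662), where 0% of genes were called and 615 had an unadjusted p under 0.05, and by -0.76 without the low-yield arrays.

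Other erythrocyte genes were unevenly detected. Of 42 genes listed, 33 had a probe set of their own, 13 of these passed the detection filter, or 39.4% against 45.8% of all genes, and 15 were P on no array. Among those were Alas2, the first enzyme of heme synthesis in red cells, Klf1, an erythroid transcription factor, and the membrane genes Epb42 and Rhag. The embryonic globins Hba-x and Hbb-bh1 were never P either, nor was the probe set of Hba-a1 alone. Slc4a1, the red cell anion exchanger, was P on 2 arrays, and Gata1 on 1. The genes detected most often are not confined to red cells: the nuclear exporter Xpo7 was P on 21 arrays, the ubiquitin ligase Mkrn1 on 16, the transferrin receptor Tfrc on 15, and Fech and Car2 on 12 each. Without the members, 4 to 7 of 31 list genes were P on each 4 h Intermediate array and 1 to 6 on each 9 day Intermediate array. Of 13 tested genes, counting the probe set annotated to Hba-a2, Hbb-b2 alone was called in 9 day against 4 h Intermediate cells. Of the 13, 4 lay above 0. The 11 tested genes without Hbb-b2 and Hba-a2 had a median difference of -0.19, and all genes one of -0.21.

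Platelet genes were likewise unevenly detected. Of 35 listed, 32 had a probe set of their own, 11 were tested, or 34.4%, and 8 were P on no array, including Gp5 and Gp1bb, subunits of the receptor for von Willebrand factor, and Treml1. Itga2b and Itgb3, which form the platelet fibrinogen receptor, were P on 1 and 2 arrays, Tubb1 on 2 and Gp9 on 4. Those detected most often besides Pf4 were Clu and Plek on 17 arrays, F13a1 on 15, and Cd9 and Thbs1 on 13, all of which are expressed by other cells too. In 24 h against sham Intermediate cells 6 of the 9 tested genes other than Pf4 and Ppbp lay above 0 and 0 were called, with a median difference of 0.17 against -0.07 for all genes. In 9 day against 24 h Intermediate cells 0 of the same 9 lay above 0 and again 0 were called, with a median of -1.69 against -0.16 for all genes. The matrix protein gene Thbs1, which platelets also store, averaged 6.15 in sham, 5.70 at 4 h, 10.01 at 24 h and 5.77 at 9 days in Intermediate cells. Selp, an adhesion receptor of platelets and endothelium, fell in 9 day against sham Low cells (limma adjusted p = 0.0144). It was P on no 9 day Low array and on both sham Low arrays, and its measured mean lay 23.7-fold lower at 9 days.

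**Figure D5:**
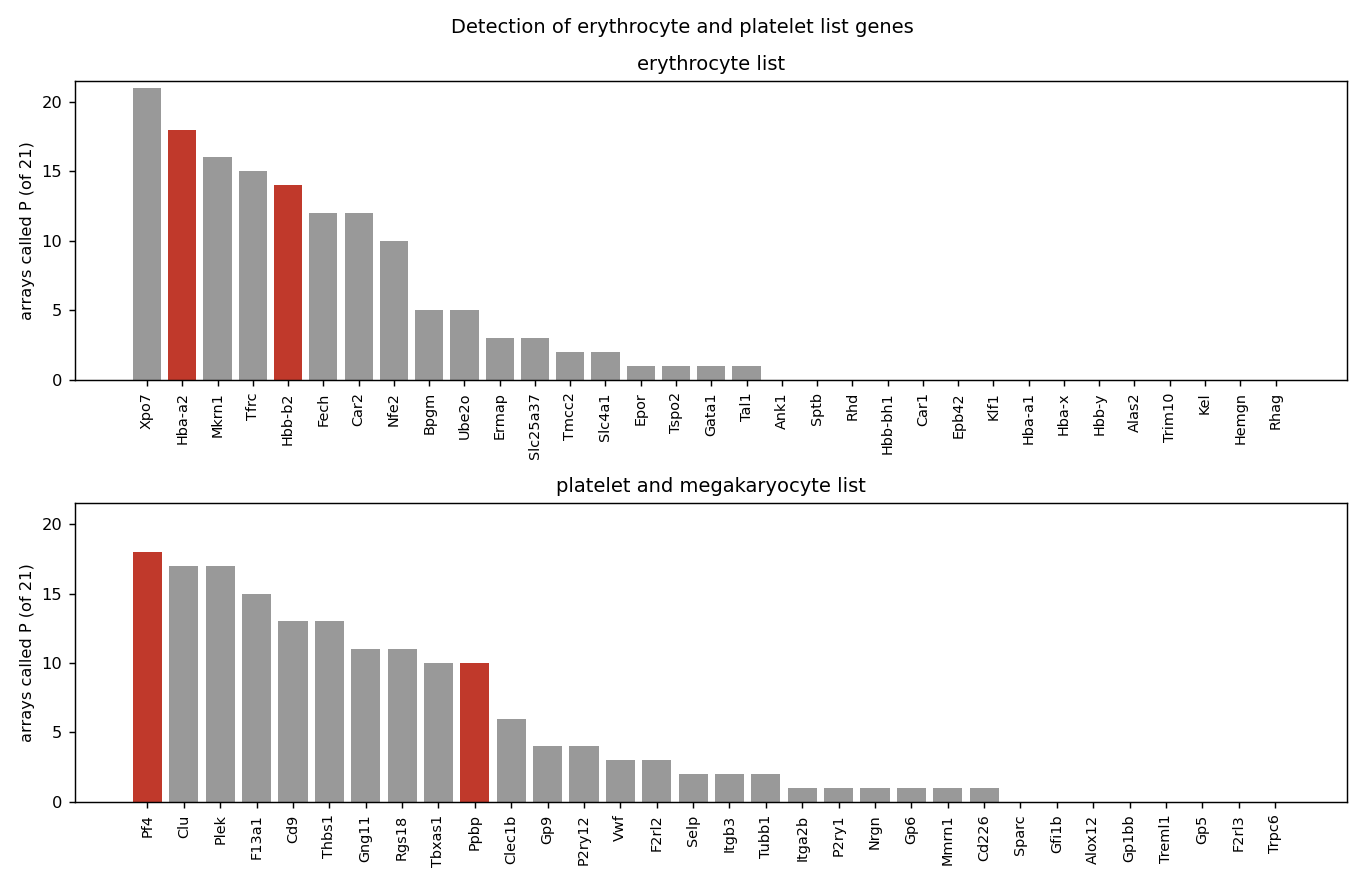
Number of the 21 arrays on which each listed gene's probe set was called P (y axis), for erythrocyte genes (top) and platelet and megakaryocyte genes (bottom) on the x axis, with the 4 members in red. The members Hbb-b2, Hba-a2, Pf4 and Ppbp are P on 14, 18, 18 and 10 arrays, while 15 erythrocyte genes and 8 platelet genes are P on none. The bar of Hba-a2 is that of the probe set annotated to it, which is not read as alpha globin.

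Of genes that handle heme and hemoglobin, 18 were listed, 17 had a probe set of their own and 15 were tested, or 88.2%, and Fth1, the ferritin heavy chain, was P on 20 arrays, Hp, which encodes haptoglobin, on 19, the metal transporter Slc11a1 on 18, and Bach1, Blvra and Flvcr1 on 16 each. Flvcr1, a heme exporter, was the only one called, and rose in 4 h against sham High cells (limma adjusted p = 0.0466), with measured means of 10.43 and 3.62. It was P on 3 of 3 arrays at 4 h and on 0 of 2 in sham animals, and the measured means lay 112-fold apart. All 15 tested genes of the list lay above 0 in this comparison, at a median of 3.03 against 0.74 for all genes. So did 11 of 12 neutrophil markers (median 3.58), 11 of 12 kidney tubule markers (1.68) and 7 of 7 classical monocyte markers (2.39). Of erythrocyte genes without the members 5 of 11 did (-0.39), and of endothelial markers 1 of 3 (-0.54). The rise was thus not particular to this list. On the sham High arrays, which include a low-yield array, 0 to 4 of the 17 genes were P. Without the low-yield arrays, which leaves sham High replicate 2 alone in its group, the Flvcr1 difference was 7.60. Hmox1, which breaks heme down, averaged 6.72 in sham, 10.15 at 4 h, 8.57 at 24 h and 6.66 at 9 days in Intermediate cells and passed no test. Its sham Intermediate values were 3.61 and 9.82, with 1 P call, against 9.65 to 10.96 at 4 h, all P. In 4 h against sham Intermediate cells 6 of the 15 tested genes of the list lay above 0. Their median difference was -0.046, against -0.087 for all genes.

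Of 18 CXC chemokines and receptors 12 were tested, Pf4 and Ppbp among them. Cxcr4, the receptor of Cxcl12, was P on 20 arrays, Cxcl2 on 19, Cxcl3 on 16, Cxcl1 on 15 and Cxcl16 on 14. Cxcr4 rose by 6.24 in 4 h against sham High cells (SE 0.86, limma adjusted p = 0.0036), and it fell by 6.55 and 6.37 in sham High against sham Intermediate and sham Low cells (adjusted p = 0.00483 and 0.00874). The same 3 differences were 7.52, -7.83 and -7.65 without the low-yield arrays, which leaves sham High replicate 2 alone in its group. Cxcl1, a neutrophil attractant, rose by 5.57 in 9 day against sham Low cells (SE 1.26, limma adjusted p = 0.042), with means of 10.18 and 4.61. Cxcr2, the receptor that the Ppbp product acts on, was P on 10 arrays and averaged 9.39 in sham, 7.28 at 4 h, 10.34 at 24 h and 6.99 at 9 days in Intermediate cells.

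The genes whose values over the 21 arrays were most like each member's were found by Pearson correlation among all genes tested. For Hbb-b2 they were Mrpl33 (r = 0.88), Spink1 (0.87), Stfa3 (0.86), Smim11 (0.84) and Malsu1 (0.83). For Pf4 they were AB124611 (r = 0.91), Erp29 (0.89), 1810058I24Rik (0.89), Hnrnph2 (0.88) and Rnf181 (0.88). For Ppbp they were Tiparp (r = 0.79), Mgst2 (0.76), Retn (0.73), Prnp (0.71) and Tob1 (0.71). For the probe set annotated to Hba-a2 they were Sec61b (r = 0.91), Ahnak (0.90), Rpl22l1 (0.90), Timm8b (0.89) and Srgn (0.89). Without the low-yield arrays the first of each stood at 0.86, 0.75, 0.80 and 0.46, so the likeness of Sec61b rested largely on those arrays. None of the 5 genes most like Hbb-b2 is on the erythrocyte list, and none of the 5 most like Pf4 or Ppbp is on the platelet list. Only 13 erythrocyte and 11 platelet genes were among the 8341 tested, so this absence carries no information. Probe sets shared by several globin genes were not part of the search.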

How the data were processed

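RNA was extracted from sorted cells, amplified with a whole-transcriptome kit for small amounts and hybridised to Affymetrix arrays with 45101 probe sets, per the labels' protocols. The deposited log2 values were made with RMA and Affymetrix Expression Console, per the submitters' processing notes, which give no versions. The deposited intensity table holds 1 linear signal per probe set and array and a detection call of present, marginal or absent, and the sources used here do not give the algorithm of these calls. Its trimmed mean was 500 on every array. The number of arrays limits the precision, and how amplification from small amounts affects the spread was not tested.

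Probe sets were named from the platform annotation: 34958 have 1 gene, 932 have several, and the rest have none there. Per gene the probe set of highest mean over the 21 arrays was used. limma 3.58.1 in R 4.3.3 fitted group means on the log2 values (13 residual degrees of freedom), with 13 comparisons and 2 differences of effects, tested two-sided. The steps were tested on simulated data. A group without a present call has only a bound: its mean, with each array's value raised where needed to the lowest value called present on that array. Folds against such a group are ratios of means and leave out the spread between arrays. Named genes were the members, in 4 lists the up to 6 genes present on most arrays and any gene called, and the 5 genes most like each member. Genes given for an absent or rare call, and Hmox1, Cxcr2, Thbs1, Mmp8, Mgst1 and the tubule markers, were chosen after their values were seen. The members, lists and tests were chosen with earlier results of these data known.

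Alternatives were the deposited signals as log2(signal + 1), quantile normalization, centring, other detection filters, the mean of all probe sets of a gene, the animal as a block, leaving out low-yield arrays or each array, yield as a covariate, the sham 58 arrays added to sham High, and another variance model. Numbers shared between gates name the same animal, and deviations of such arrays correlated between -0.0719 and 0.0601.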

Additional observations from a re-analysis of the deposited data

Results flagged for a closer look

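The 3 arrays labelled sham 58 High stayed outside the groups, because their common label does not say whether they come from separate animals. On several of them a member was called P at a level above both sham High arrays. Hbb-b2 read 8.11 and 8.65 on sham 58 arrays 1 and 3, against 2.63 and 8.06 in sham High cells, both A there. The probe set annotated to Hba-a2 read 10.33 and 10.76 on arrays 1 and 2, against 3.02 and 8.87. Pf4 read 9.90 and 10.55 on arrays 2 and 3, against 2.74 and 7.47. Ppbp, at 2.99 to 3.17 on these arrays, was above the sham High values of 4.03 and 3.28 on none. The sham High group includes a low-yield array, and its share in these gaps was not tested.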

How the results depend on the processing

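Leaving out each array in turn, the number of members called ranged from 0 to 2 for 9 day against 4 h Intermediate cells, for 4 h against sham High cells and for sham High against sham Intermediate cells. It ranged from 0 to 3 for 9 day against 24 h Intermediate cells, and from 0 to 1 for sham High against sham Low, 9 day Intermediate against 9 day Low and 9 day against sham Intermediate cells. For the remaining comparisons and both differences of effects it was 0. In 9 day against sham Intermediate cells Hbb-b2 was called without sham High replicate 1 or 2 (limma adjusted p = 0.0472), as it was in 9 day against 24 h Intermediate cells (adjusted p = 0.0489). Where 1 array of a group was left out, the other was assumed to vary like the remaining groups.

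In 9 day against 4 h Intermediate cells the number called was 0 with the deposited signals (Hbb-b2 limma adjusted p = 0.0898), with quantile normalization (0.083), with no detection filter (0.0554) and with a variance trend and robust prior (0.0658), and it was 1 under the others. Without low-yield arrays 1 member was called in 9 day against sham and in 9 day against 24 h Intermediate cells, both times Hbb-b2 (adjusted p = 0.0274 and 0.0295). With yield as a covariate 2 were called in 9 day against 24 h Intermediate cells, Pf4 (0.0398) and Ppbp (0.0422). The cause of these changes was not tested.

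With the animal as a random replicate block Hbb-b2 kept its call (adjusted p = 0.0316). The fixed replicate block allowed only comparisons of gates, where 0 members were called. Pairing changed no call, and for Pf4 in 9 day Intermediate against Low cells the adjusted p was 0.1572 with the fixed block. None of the member differences followed under these settings changed sign. The correlation of the probe set annotated to Hba-a2 with Pf4 was -0.065 without low-yield arrays, against 0.67 over all, that of Hbb-b2 with Pf4 was -0.27 without them, against 0.31, and that of Pf4 with Ppbp was -0.39 over deviations from group means, against 0.25. Over the same deviations, that of Hbb-b2 with Ppbp was -0.067, against 0.47, that of the Hba-a2 probe set with Ppbp was -0.17, against 0.39, and that of Hbb-b2 with Pf4 was -0.02. Of the group levels of members followed under other settings, 37 moved and 59 stayed the same. Log2 values and signals differ in scale, and how many of these moves that covers was not tested.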
